A study of Homo sapiens with 8 samples.

Results

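MDM2 and the genes beside it in band 12q15 of chromosome 12 were followed in 4 human neuroblastoma cell lines. The 10 genes were MDM2, CPM, FRS2, CCT2, YEATS4, NUP107, SLC35E3, RAP1B, CPSF6 and LYZ, named as neighbours in this band. A gene was measured where a probe set (a group of short probes for 1 transcript) was annotated to its symbol alone, and the probe set with the highest mean over the 8 arrays stood for it. This gave 9 of the 10 genes, out of 19774 genes in all. FRS2 had no such probe set in the annotation used here. LYZ lay below the level filter (log2 3.21) used for tests across genes, so that 8 of 10 genes passed it, among 14517 tested genes. The genes had been chosen by position and with the high levels of MDM2 and its neighbours in NB1691 in view. Levels of NB1691 against the other lines are therefore given as a description with no test.

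Total RNA was measured on 8 Affymetrix expression arrays, 1 per line and treatment. Cells were given the iron-binding antifungal agent ciclopirox at 2.5 µM or vehicle, each for 48 h. The lines were NB1691, SKNBE2, SKNAS/shHIF1a and SKNAS, all grown in RPMI medium with 10% FCS. SKNAS/shHIF1a carries a short hairpin against HIF1A, and whether it is 1 clone is not given in the labels. By their labels SKNAS is of c-Myc status, and N-Myc status is given to NB1691, SKNBE2 and also SKNAS/shHIF1a, the derivative of SKNAS.

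MDM2 encodes the ubiquitin ligase that binds p53, blocks it and sends it for degradation. p53 in turn switches on MDM2, which closes a feedback loop. In some neuroblastomas and in most well-differentiated liposarcomas, MDM2 is gained in many copies on 12q, often together with CDK4, a cell cycle kinase that lies nearer to the centromere. Copy number of DNA was not measured here. The values below are RNA signals on the log2 scale, on which a difference of 1 is 2-fold, and DNA copies, transcription and other differences between the lines cannot be told apart. In RNA from whole cultures, fewer cells of a kind and less RNA per cell cannot be told apart either.

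The 8 arrays had medians between 3.47 and 3.52. HIF1A, the gene targeted by the hairpin, had levels of 11.09 under ciclopirox and 11.71 under vehicle in the line labelled SKNAS/shHIF1a, against 11.94 and 12.25 in SKNAS. The difference was -0.69 ± 0.21 (SE) and did not pass the test (limma, adjusted p = 0.257). Of 10 noradrenergic neuroblastoma markers, 8 had a probe set. All 8 reached the filter level on both arrays of NB1691, SKNBE2 and SKNAS/shHIF1a, against 7 on both SKNAS arrays. Their levels were far apart, which this count does not show. The median of the markers was 10.49 under ciclopirox and 10.99 under vehicle in NB1691, and 10.48 and 10.40 in SKNBE2. It was 5.50 and 6.53 in SKNAS/shHIF1a, and 7.39 and 7.76 in SKNAS. Among 14 myeloid and lymphoid markers, PTPRC, a pan-leukocyte surface gene, was chosen after its values were seen. It was at 3.04 under ciclopirox and 3.12 under vehicle in NB1691, and at 3.29 and 3.22 in SKNBE2. In SKNAS/shHIF1a PTPRC read 6.34 and 9.57, and in SKNAS 10.42 and 11.53. The myeloid genes CD14, SPI1 and TYROBP were between 2.72 and 3.003 on both SKNAS arrays. CD68 and CORO1A of the same list read 4.45 and 4.57 there under ciclopirox, and 3.41 and 4.59 under vehicle.

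Levels of 5 members stood far above the other lines in NB1691. MDM2, CPM, SLC35E3, YEATS4 and CCT2 were each at least 2-fold higher on the lower NB1691 array than on the highest of the 6 other arrays. Across all tested genes this held for 470 of 14517, or 3.24%. CPM reached the filter level only through its NB1691 arrays. Among the 7 members that reach it over the other 6 arrays alone, 4 passed the gap, against 2.48% of 14199 genes, and these counts are read no further because the levels were known when the genes were chosen. NUP107, RAP1B and, on its brightest probe set alone, CPSF6 had their lowest levels in NB1691. A second CPSF6 probe set was higher there, by 2.39 between means. Differences given below are the NB1691 mean minus the mean of the other 6 arrays, and their median over all tested genes was -0.01. No member was at least 2-fold higher in SKNBE2 than on all other arrays (1.5% of all tested genes were), or in SKNAS/shHIF1a together with SKNAS (3.72%).

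**Figure D1:**
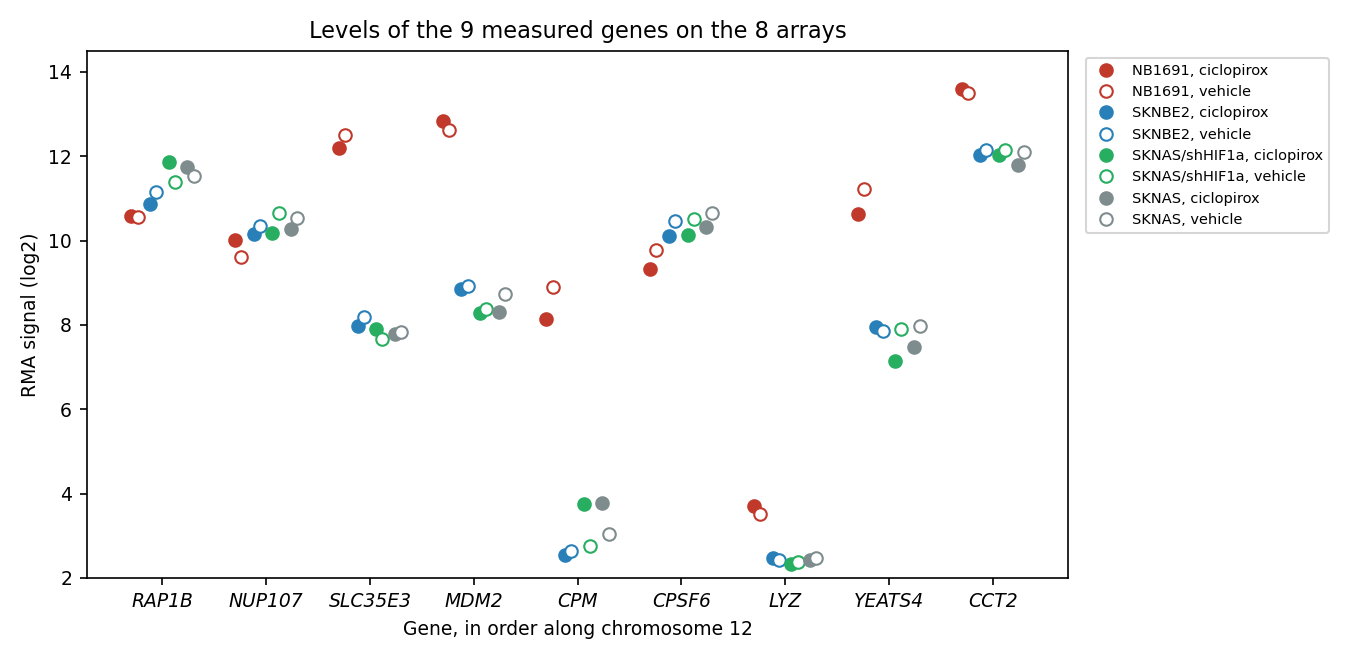
Log2 level of each measured member in each array (points), with NB1691 leftmost and ciclopirox (filled) left of vehicle (open) in each line. MDM2, CPM, SLC35E3, YEATS4 and CCT2 are highest in NB1691, and NUP107, RAP1B and the brightest CPSF6 probe set are lowest there.

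MDM2 itself was among the brightest transcripts of NB1691. Its level was 12.84 under ciclopirox and 12.61 under vehicle in NB1691. The same probe set read 8.85 and 8.93 in SKNBE2, 8.29 and 8.38 in SKNAS/shHIF1a, and 8.30 and 8.72 in SKNAS, in each case ciclopirox first. The groups did not overlap, and the 3 other lines lay within a narrow band. NB1691 was higher by 4.14, or 17.7-fold, where the SD over the 6 other arrays was 0.289. The 99.6th and 99.5th percentiles of all probe set levels were reached by MDM2 on the ciclopirox and the vehicle array of NB1691. Among 14517 tested genes the difference ranked 100.

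SLC35E3, a member of a family of nucleotide sugar transporters whose own substrate is not settled, is the neighbour of MDM2 on the centromere side. It read 12.18 under ciclopirox and 12.49 under vehicle in NB1691, against 7.67 to 8.18 on the 6 other arrays. The difference was 4.45, or 21.8-fold. CPM, carboxypeptidase M, a membrane enzyme that removes C-terminal arginine and lysine from peptides, is the neighbour on the other side. It had levels of 8.15 under ciclopirox and 8.89 under vehicle in NB1691. On the other arrays CPM lay close to or below the filter level, at 2.55 and 2.64 in SKNBE2, 3.76 and 2.76 in SKNAS/shHIF1a, and 3.77 and 3.03 in SKNAS. The difference was 5.43, or 43.2-fold on this scale. It is set against the background signal of a dim probe set, so that neither its fold nor its rank can be compared with those of MDM2 and SLC35E3.

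MDM2, SLC35E3 and CPM lie next to each other and shared the high level in NB1691, so the reference sequence at their start sites is shown, from 250 bases before to 50 bases after each start. The sequences are from RefSeq on build GRCh38.p14, 5′ to 3′ on the strand of the gene. They lie at chr12:68807922-68808221 on the plus strand for MDM2, chr12:68745926-68746225 on the plus strand for SLC35E3 and chr12:68933150-68933449 on the minus strand for CPM. Capitals mark the GC box GGGCGG on either strand.
MDM2: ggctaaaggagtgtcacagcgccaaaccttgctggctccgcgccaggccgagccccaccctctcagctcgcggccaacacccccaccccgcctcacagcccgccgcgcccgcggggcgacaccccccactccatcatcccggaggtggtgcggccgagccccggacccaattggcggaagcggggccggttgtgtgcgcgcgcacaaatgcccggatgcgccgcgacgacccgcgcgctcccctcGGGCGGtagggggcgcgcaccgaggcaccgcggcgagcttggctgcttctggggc
SLC35E3: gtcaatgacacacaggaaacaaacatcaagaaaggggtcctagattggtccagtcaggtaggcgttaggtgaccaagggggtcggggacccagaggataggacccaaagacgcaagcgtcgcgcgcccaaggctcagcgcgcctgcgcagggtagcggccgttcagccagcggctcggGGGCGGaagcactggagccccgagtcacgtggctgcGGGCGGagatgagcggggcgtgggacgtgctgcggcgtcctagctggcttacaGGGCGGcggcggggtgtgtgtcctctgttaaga
CPM: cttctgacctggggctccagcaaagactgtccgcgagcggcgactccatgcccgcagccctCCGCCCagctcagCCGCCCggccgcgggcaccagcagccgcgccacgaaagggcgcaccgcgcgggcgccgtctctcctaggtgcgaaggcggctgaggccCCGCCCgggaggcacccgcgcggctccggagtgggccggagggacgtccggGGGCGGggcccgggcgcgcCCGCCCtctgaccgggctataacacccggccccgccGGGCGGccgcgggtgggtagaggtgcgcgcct
The window of MDM2 held 1 GC box, that of SLC35E3 held 3 and that of CPM held 6. GC content was 74.7%, 65.0% and 78.7%, in the same order. A GC box was present in 45.0% of 35116 windows of the same length. The CCAAT box, searched as CCAAT on either strand, was found 2 times at MDM2, 1 time at SLC35E3 and 0 times at CPM, and is present in 34.6% of windows. The E-box CACGTG, which reads the same on both strands, occurred only at SLC35E3 among these 3, and in 7.26% of all windows. Of the 10 genes, 9 had a window in the RefSeq table, and the GC box count ran from 0 in YEATS4 and NUP107 to 6 in RAP1B and CPM. RAP1B, with as many GC boxes as CPM, was lowest in NB1691, and a relation between such counts and levels was not tested. These are matches of letters in a reference sequence and not measured binding.

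YEATS4 (also called GAS41) is a reader of acetylated histones in chromatin-modifying complexes. Its level was 10.62 under ciclopirox and 11.22 under vehicle in NB1691. It was 7.96 and 7.84 in SKNBE2, 7.14 and 7.90 in SKNAS/shHIF1a, and 7.48 and 7.98 in SKNAS. NB1691 stood above all other arrays, by 3.20 between means, or 9.21-fold. CCT2, a subunit of the ring-shaped chaperonin that folds actin and tubulin, was bright in every line. It read 13.60 under ciclopirox and 13.50 under vehicle in NB1691, against 11.80 to 12.14 elsewhere. Its difference of 1.51, or 2.84-fold, was the smallest of the 5 genes and ranked 1007. The table's highest value is 14.02, so that the CCT2 signal in NB1691 lay near the upper end of the scale.

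NUP107, a scaffold subunit of the nuclear pore, lies on the centromere side of SLC35E3. It had levels of 10.01 under ciclopirox and 9.62 under vehicle in NB1691, against 10.16 to 10.64 on the other arrays, a difference of -0.54. RAP1B, a small GTPase that controls integrin adhesion and cell junctions, lies next to NUP107. It read 10.57 and 10.55 in NB1691, against 10.87 to 11.86 elsewhere, a difference of -0.86. Both genes were thus lowest in NB1691, though by less than the 2-fold mark. CPSF6, a subunit of cleavage factor I in messenger RNA 3′ end formation, lies inside the stretch of high genes, between CPM and YEATS4. Its brightest probe set read 9.33 under ciclopirox and 9.77 under vehicle in NB1691, against 10.10 to 10.66 elsewhere, a difference of -0.81. A second probe set put NB1691 highest for CPSF6. NUP107 and RAP1B, read by 1 probe set each, were lowest in NB1691, as were 14.4% of all tested genes by any gap. SLC35E3 and YEATS4 also rest on 1 probe set each, so agreement between probe sets cannot be judged for these genes.

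LYZ encodes lysozyme, a bacteria-degrading enzyme of myeloid cells and glands, and was dim in every line. It read 3.70 under ciclopirox and 3.51 under vehicle in NB1691, against 2.32 to 2.48 on the 6 other arrays. The difference of 1.18 was larger than the SD of 0.0635 over those arrays, at levels near the background of the array. Its second probe set differed by -0.00. Among 14 myeloid and lymphoid markers with a probe set, 4 on the ciclopirox array and 5 on the vehicle array of NB1691 reached the filter level, against 4 to 7 on the other arrays. Their log2 summed signal was 7.36 and 7.35 in NB1691, against 7.39 to 11.59 elsewhere. The upper end of that range lay in SKNAS, where PTPRC was the highest marker. CD14, CSF1R, SPI1, ITGAM and TYROBP stayed between 2.57 and 3.54 on all arrays. CD68, a myeloid gene of the same list, went the other way. It was highest in NB1691 within each treatment, at 5.38 under ciclopirox and 4.31 under vehicle, against 2.93 to 4.45 elsewhere.

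The order of genes along the chromosome, taken from RefSeq names and neighbours, was used to place the high levels. From the centromere side the protein-coding genes are MDM1, RAP1B, NUP107, SLC35E3, MDM2, CPM, CPSF6, LYZ, YEATS4, FRS2, CCT2, LRRC10, BEST3, RAB3IP, MYRFL, CNOT2, KCNMB4 and PTPRB. MDM1, outside the members, differed by -0.05, and the step up came between NUP107 at -0.54 and SLC35E3 at 4.45. Beyond CCT2 the high levels went on. BEST3, a chloride channel gene, differed by 2.52, RAB3IP, an exchange factor for Rab GTPases, by 4.85, CNOT2, a subunit of the CCR4-NOT deadenylase, by 3.47, and KCNMB4, a potassium channel subunit, by 5.34. CNOT2 read 13.14 under ciclopirox and 13.09 under vehicle in NB1691, against 9.43 to 9.78 elsewhere. PTPRB, a receptor phosphatase gene, was the first tested gene beyond them below a difference of 1, at 0.05. It read 3.41 to 3.92 over all arrays, near background, so it cannot show whether the high levels ended there. PTPRR, a phosphatase gene next to it, differed by 3.12, but its NB1691 levels overlapped with those of the other lines, and TSPAN8 followed at -0.78.

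From SLC35E3 to KCNMB4, 9 of 10 tested genes passed the 2-fold gap, CPM and BEST3 having reached the filter level only through NB1691, and the brightest probe set of CPSF6 did not. The members thus form only a portion of a longer run, which was not bounded by CCT2. A second run lay nearer to the centromere. From PRIM1 to ATP23, 30 of 42 tested genes passed the gap, with a median difference of 3.37. CDK4 is in that run, and it read 12.86 under ciclopirox and 12.93 under vehicle in NB1691, against 10.47 to 11.26 elsewhere, a difference of 1.89. Between the runs, from LRIG3 to MDM1, 2 of 27 genes passed, namely PPM1H at 3.59 and GRIP1 at 4.61, and the median was -0.41. On the 6 other arrays PPM1H read 2.52 to 3.35 and GRIP1 2.56 to 3.05. Both of these genes between the runs thus reached the filter level only through NB1691. HMGA2, a chromatin protein gene in that gap and a known partner of MDM2 in amplified regions, read 2.64 and 2.61 in NB1691, against 2.55 to 9.98 elsewhere, where SKNBE2 was as low as NB1691. The ends of the runs were chosen after the values were seen. Counts along the chromosome may include further genes that reached the filter level only through NB1691. With the filter set over the other 6 arrays, 352 of 14199 genes (2.48%) passed the gap, against 470 of 14517 (3.24%). That filter was not applied to the counts by run or chromosome, which are a description only. On the whole of chromosome 12, 58 of 771 tested genes (7.52%) passed the gap, against 9 of 371 (2.43%) before PRIM1 and 8 of 318 (2.52%) after KCNMB4. Of 54 genes of 12q13 to 12q15 listed as neighbours beside the members, 46 were tested, 16 passed the gap upwards and 2 downwards, and the median difference was 0.15. The 2 lower genes were LGR5 at -3.28 and THAP2 at -1.62.

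**Figure D2:**
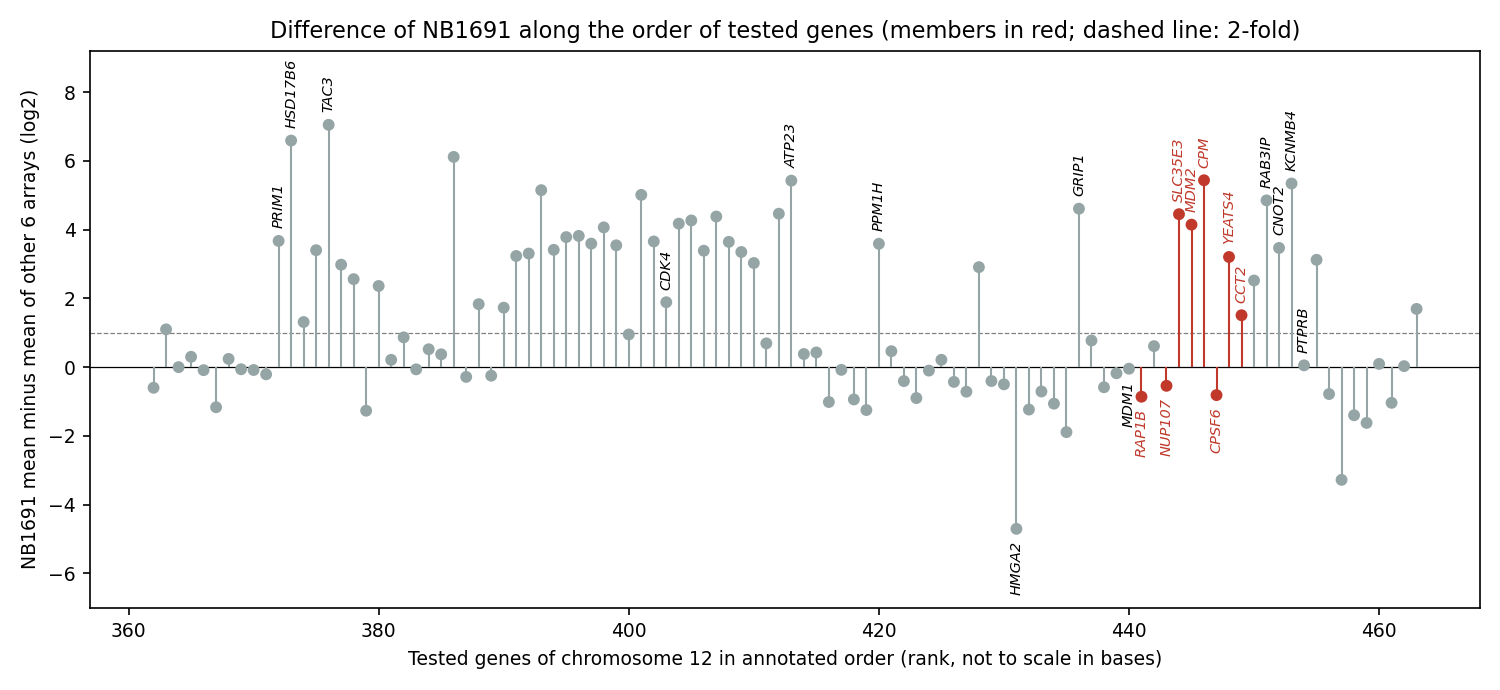
NB1691 mean minus the mean of the other 6 arrays (log2, y axis) for tested genes in their order along chromosome 12 (x axis, rank of the gene). The run from SLC35E3 to KCNMB4 and the run from PRIM1 to ATP23 hold most of the high genes, with medians of 3.80 and 3.37, and CPSF6 lies below 0 at -0.81 among its high neighbours.

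The probe sets of a gene were then set beside each other, since they read different stretches of its transcripts and share a target. Members had 26 probe sets, of which 21 reached the filter level. Some of these reach the level only through NB1691, so counts are given for those that reach it over the other 6 arrays alone. For MDM2, 5 of 5 such probe sets passed the 2-fold gap, with differences from 4.14 to 6.54. In the lines other than NB1691 the remaining 4 of its 9 probe sets lay below that level on average. Both CCT2 probe sets passed, with 1.51 and 2.55. For CPM, 1 of 6 reached that level (217557_PM_s_at), near background on all arrays, and it differed by 0.05, so the count says nothing of CPM. Over all probe sets at the level outside NB1691, 523 of 27012 (1.94%) passed. CPSF6 split by probe set. Its second probe set, 226934_PM_at, read 10.70 under ciclopirox and 11.88 under vehicle in NB1691, against 8.40 to 9.36 on the other arrays, a difference of 2.39. The dimmest, 202470_PM_s_at, differed by -0.13. The direction for CPSF6 in NB1691 therefore depended on the probe set, and which transcripts each one reads was not tested.

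Ciclopirox changed no member past the test over the 4 lines. In limma with the line as a block, 0 of 14517 tested genes (0.0%) had an adjusted p under 0.05, 2599 (17.9%) had an unadjusted p under 0.05, and the smallest adjusted p was 0.121. Among the 8 members, 2 had an unadjusted p under 0.05, YEATS4 and CPSF6. Separate cultures are not stated for the arrays, and these p-values measure the spread between these samples, and the number of arrays limits the precision. The median mean change was -0.10 over the members and -0.01 over all tested genes.

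MDM2 differed between ciclopirox and vehicle by 0.23 in NB1691, -0.08 in SKNBE2, -0.09 in SKNAS/shHIF1a and -0.42 in SKNAS. The mean was -0.09 ± 0.14 (SE, 4 lines, limma adjusted p = 0.771). SKNAS/shHIF1a derives from SKNAS, so the 4 lines are not independent. With that pair averaged, the mean for MDM2 was -0.04 (limma adjusted p = 0.946). CPSF6 was lower under ciclopirox in all 4 lines, by similar amounts of -0.44 in NB1691, -0.36 in SKNBE2, -0.37 in SKNAS/shHIF1a and -0.35 in SKNAS. Its mean change was -0.38 ± 0.11 (limma adjusted p = 0.191), and a lower level in all 4 lines was seen for 16.0% of tested genes. YEATS4 changed by -0.60 in NB1691, 0.11 in SKNBE2, -0.76 in SKNAS/shHIF1a and -0.50 in SKNAS, with a mean of -0.44 ± 0.17 (limma adjusted p = 0.274). CPM went different ways in different lines, with -0.74 in NB1691 and -0.08 in SKNBE2, against 1.00 in SKNAS/shHIF1a and 0.74 in SKNAS, where both levels were near background. The remaining members had mean changes between -0.13 (NUP107) and 0.11 (RAP1B), with adjusted p from 0.694 to 0.782. Within NB1691 no member changed 2-fold in either direction on its brightest probe set, while 3.31% of tested genes were at least 2-fold higher and 5.12% at least 2-fold lower under ciclopirox. No member was 2-fold lower in SKNBE2, SKNAS/shHIF1a or SKNAS either, where 1.25%, 4.31% and 1.62% of tested genes were. On the brightest probe sets, CPM in SKNAS/shHIF1a was the 1 case at 2-fold in any line, between levels near background. In that line 5.52% of tested genes were that much higher. Other probe sets of MDM2 and CPSF6 changed by more than 2-fold in NB1691, as given below.

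**Figure D3:**
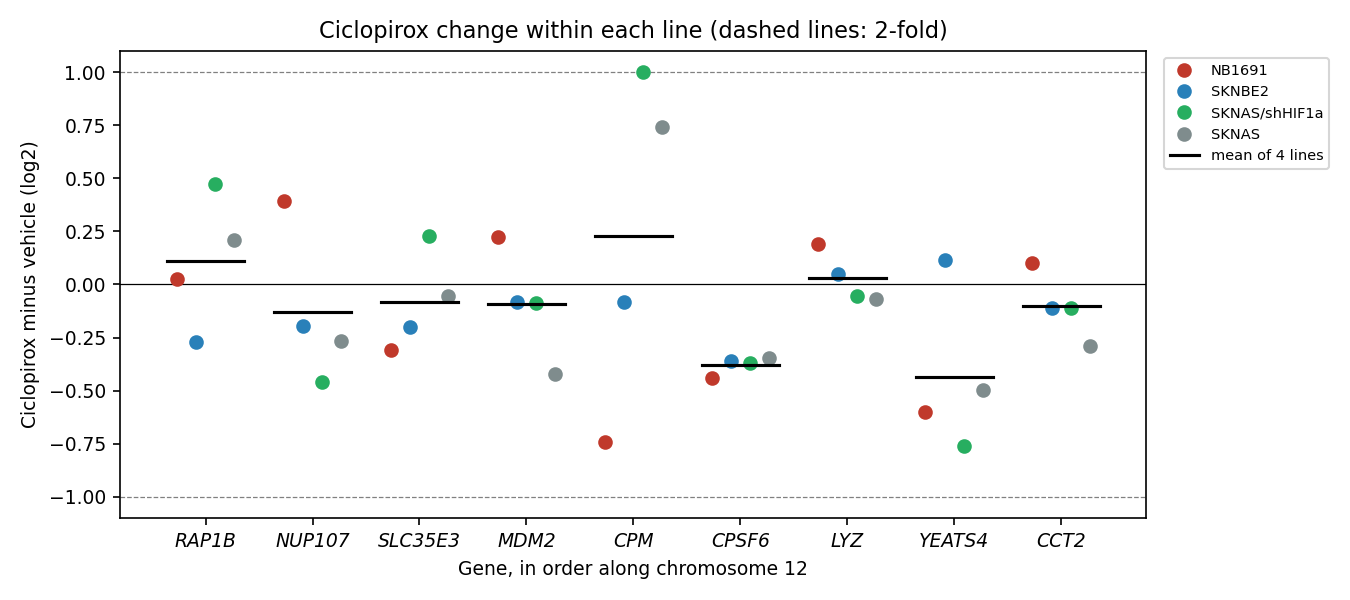
Ciclopirox minus vehicle (log2, y axis) in each line for each measured member in gene order (x axis), with the mean of the 4 lines as a bar and NB1691 leftmost. CPSF6 is between -0.44 and -0.35 in all lines, and CPM runs from -0.74 in NB1691 to 1.00 in SKNAS/shHIF1a.

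Whether NB1691 answered the drug differently was tested on the 4 within-line changes, NB1691 against the mean of the other 3. Again 0 of 14517 genes (0.0%) passed in limma, 1726 (11.9%) had an unadjusted p under 0.05, and the smallest adjusted p was 0.228. The arm of NB1691 is 1 difference and is taken to vary like the others. The other 3 lines include SKNAS and its derivative, which are not independent. MDM2 gave a response difference of 0.42 ± 0.28 (SE, limma adjusted p = 0.597). With the mean of its probe sets the value was 1.16. That mean takes in probe sets close to background outside NB1691, from which a response there cannot be read. NUP107 gave 0.70 ± 0.26 (limma adjusted p = 0.403). CPM gave -1.29 ± 0.48 (limma adjusted p = 0.412), or -0.58 with the mean of its probe sets, but its levels in the other lines are near background, and a response there cannot be read. NUP107 and CPM were the 2 members with an unadjusted p under 0.05. MDM2, CCT2 and NUP107, 3 of 8 members, changed one way in NB1691 and the opposite way in the other 3 lines, against 16.0% of tested genes. For MDM2 this depended on the probe set. Its second brightest, 225160_PM_x_at, was also higher under ciclopirox in SKNAS/shHIF1a, by 0.38, and 217542_PM_at in SKNBE2, by 0.10.

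The probe sets of MDM2 gave unequal drug changes in NB1691. Its 2 brightest, 229711_PM_s_at and 225160_PM_x_at, were higher under ciclopirox by 0.23 and 0.65, and 217542_PM_at by 0.03. Larger changes were read by 3 others. Probe set 211832_PM_s_at was at 9.58 under ciclopirox and 7.003 under vehicle in NB1691, a change of 2.58, or 5.96-fold. Probe set 217373_PM_x_at was at 11.20 and 8.83, a change of 2.37, or 5.18-fold. Probe set 205386_PM_s_at was at 10.70 and 8.72, a change of 1.98, or 3.94-fold. On the 6 arrays of the other lines these 3 probe sets read between 2.59 and 3.60, close to background. In those lines, changes over the 7 MDM2 probe sets at the filter level ran from -0.61 to 0.38.

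A limma fit was also run on single probe sets, a step added after the data were seen. It covered the 27261 probe sets with 1 gene at the filter level. None of them passed for the response of NB1691 minus that of the other lines. A drug change could not be read outside NB1691 from 211832_PM_s_at, 217373_PM_x_at and 205386_PM_s_at, and no response difference is given for them. For the other 4 probe sets it lay between 0.38 and 0.75, with limma adjusted p between 0.442 and 0.724. Names with x mark probe sets whose probes may match other transcripts. The 7 probe sets have 1 target gene and are not replicates. For CPSF6, probe set 226934_PM_at changed by -1.18 in NB1691, against -0.18 to -0.10 in the other lines, and its response difference was -1.04 ± 0.25 (limma adjusted p = 0.245).

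**Figure D4:**
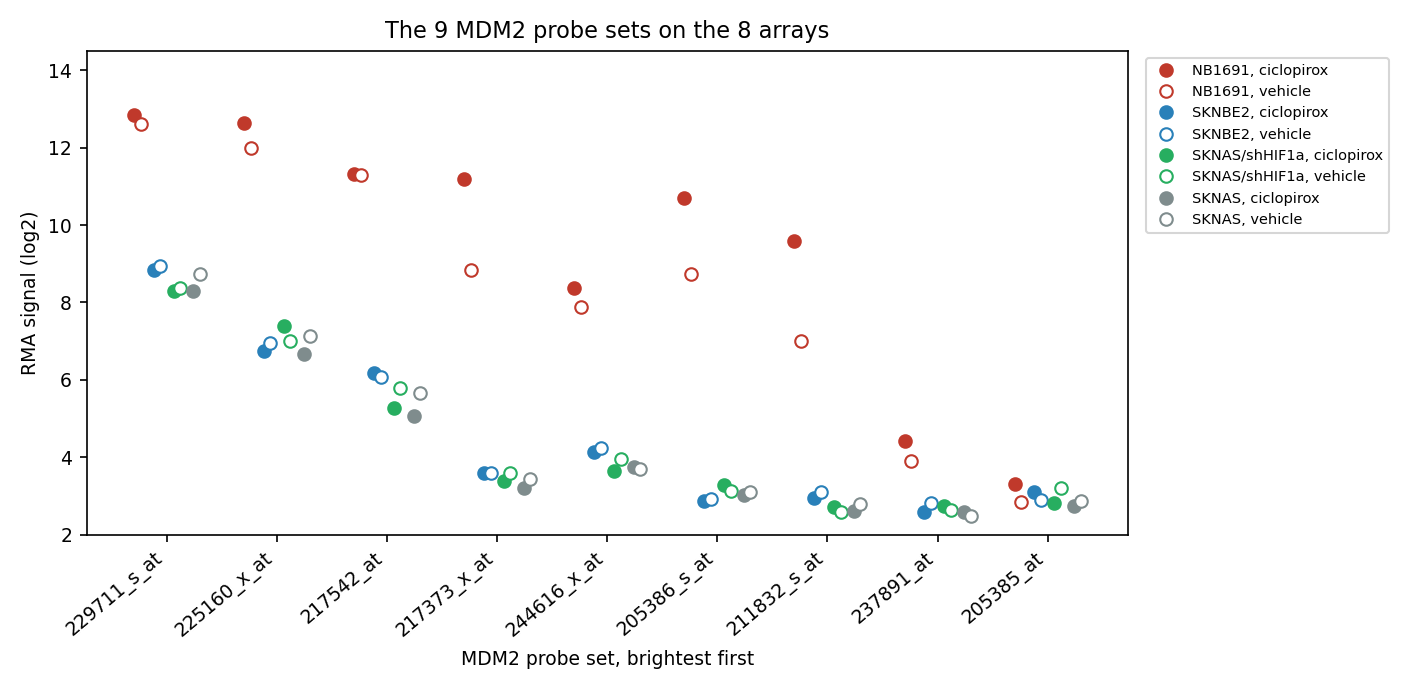
Log2 level of each of the 9 MDM2 probe sets, by line, with ciclopirox (filled) left of vehicle (open) and NB1691 leftmost. The 7 at the filter level are highest in NB1691. There, 211832_PM_s_at, 217373_PM_x_at and 205386_PM_s_at have the widest distance between ciclopirox and vehicle, at 2.58, 2.37 and 1.98. Below the filter level, 205385_PM_at reads 3.31 and 2.84 in NB1691, which overlaps with 2.73 to 3.22 on the other arrays.

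Genes around p53 were read beside MDM2. Of 30 regulators and partners of MDM2 and p53, 27 were tested, and none passed the 2-fold gap in NB1691 in either direction, with a median difference of -0.07. MDM4, the close relative of MDM2 that also restrains p53, differed by 0.22 and overlapped with the other lines. PPM1D, a phosphatase that dampens p53 and is itself a p53 target, was at 11.52 under ciclopirox and 10.06 under vehicle in NB1691, against 8.52 to 9.22 elsewhere. Its response difference in NB1691 was 1.75 ± 0.29 (SE, limma adjusted p = 0.325).

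Of 28 p53 target genes, 25 were tested and none passed either drug test. For ciclopirox against vehicle over all lines 11 had an unadjusted p under 0.05 (limma, 17.9% of all tested genes), and for the response of NB1691 9 had (11.9%). At least 2-fold higher under ciclopirox were 13 of 25 in NB1691 and 5 of 25 in each of the other lines. Among all tested genes the shares were 3.31% in NB1691, 2.11% in SKNBE2, 5.52% in SKNAS/shHIF1a and 3.38% in SKNAS. The median change of the targets was 1.12 in NB1691, 0.21 in SKNBE2, 0.23 in SKNAS/shHIF1a and 0.23 in SKNAS. CDKN1A, the cyclin-dependent kinase inhibitor p21, was at 10.89 under ciclopirox and 9.17 under vehicle in NB1691, 6.90 and 5.58 in SKNBE2, 9.56 and 6.36 in SKNAS/shHIF1a, and 8.92 and 6.03 in SKNAS. It was higher in 4 of 4 lines, by a mean of 2.28 ± 0.34 (SE, limma adjusted p = 0.121). GDF15, a secreted stress factor, had a mean change of 3.09 ± 0.56 (limma adjusted p = 0.139). SPATA18, a mitochondrial quality-control gene, and ZMAT3, an RNA-binding protein gene, were the 2 targets past the 2-fold gap in NB1691, with differences of 4.77 and 2.44.

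The partners of the other members were then compared with them, to see whether a member's complex was also high in NB1691. Of the 7 chaperonin subunits beside CCT2, none passed the 2-fold gap, and differences ran from -0.39 (CCT7) to 0.51 (TCP1), against 1.51 for CCT2. Of 20 subunits of the NuA4 and SRCAP chromatin complexes beside YEATS4, none passed it, and values ran from -0.95 (EPC2) to 0.60 (MBTD1), against 3.20 for YEATS4. Of 9 subunits of the NUP107 complex, none passed it, with a median of 0.41. Of 13 cleavage and polyadenylation subunits beside CPSF6, none passed it, with a median of -0.06 and CPSF2 lowest at -1.90. Of 14 tested RAP1 signalling partners none passed it, with a median of 0.13.

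FRS2, the adaptor that carries the signal from FGF receptors to the RAS and MAP kinase pathway, has no value here. Of its 17 partners in FGF signalling, 2 were past the 2-fold gap upwards in NB1691, the receptor FGFR2 at 2.76 and the adaptor FRS3 at 1.44. Lower by at least the same gap were 4, namely SPRY4 at -3.75, SPRED1 at -3.32, SPRY2 at -2.86 and DUSP6 at -3.82. These 4 encode feedback inhibitors of the pathway, and the share of all tested genes lower by that gap was 1.69%. DUSP6 read 6.44 and 6.71 in NB1691, 7.81 and 7.84 in SKNBE2, and 11.47 to 11.88 in SKNAS and its derivative. SPRY4, SPRED1 and SPRY2 read 8.20, 8.56 and 10.16 in SKNBE2 under ciclopirox, against 4.84, 5.79 and 7.91 in NB1691. SPRY1 had the largest difference, -4.75, but was as low in SKNBE2, at 4.04 and 3.68, and did not pass the gap. In the ciclopirox test 0 genes of these partner lists passed (limma, 0.0% of all tested genes). The chaperonin list had 5 of 7 lower in all 4 lines, as were 16.0% of all tested genes, and RUVBL1, an ATPase of the NuA4 complex, had a mean change of -0.93 ± 0.13 (limma adjusted p = 0.121).

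**Figure D5:**
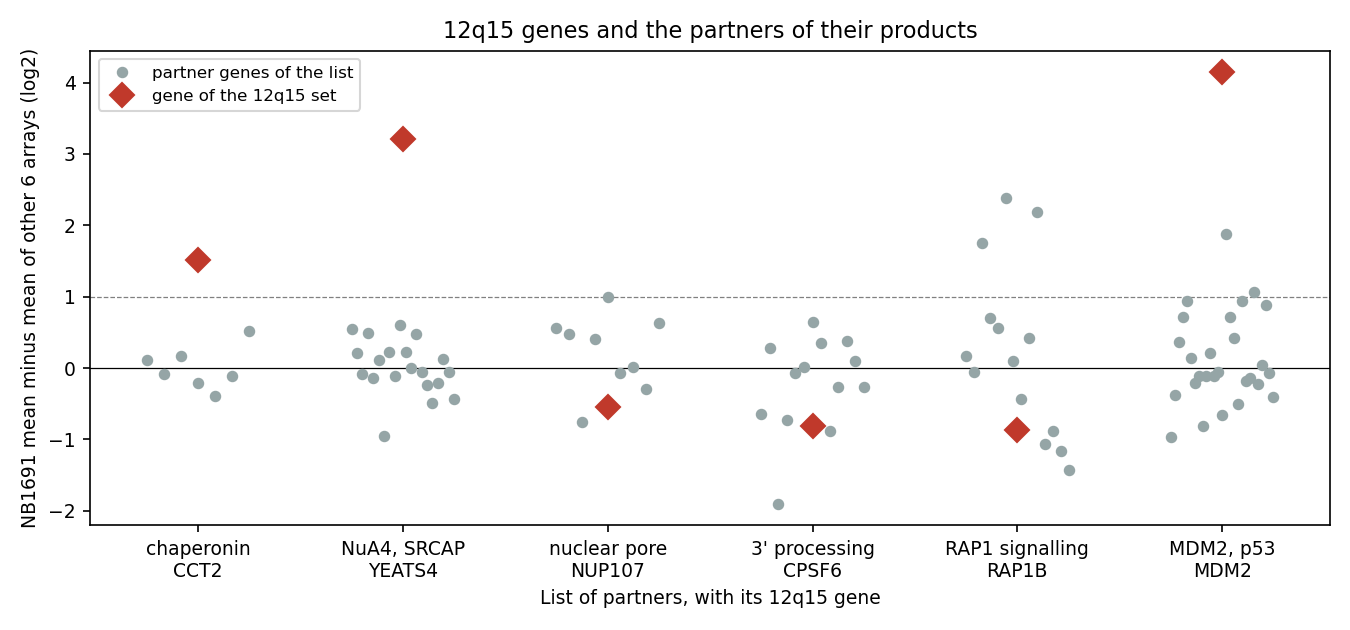
NB1691 mean minus the mean of the other 6 arrays (log2) for the members and for the tested genes of their partner lists, 1 point per gene. CCT2 at 1.51 and YEATS4 at 3.20 stand apart from the subunits of their complexes, which lie between -0.95 and 0.60.

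The line labelled SKNAS/shHIF1a was compared with SKNAS, a contrast that did not enter the choice of the members. Each line has 2 arrays here, its ciclopirox and its vehicle array. The p-values therefore do not measure the spread between separately derived lines, and an effect of the hairpin cannot be told from other differences between the lines. Over all genes 230 of 14517 (1.58%) passed in limma, 108 higher and 122 lower. Of the 8 members 0 passed, none with an unadjusted p under 0.05. The 230 calls became 23 without the SKNAS vehicle array, 28 without SKNAS ciclopirox and 149 without SKNAS/shHIF1a vehicle. MDM2 differed by -0.18 ± 0.20 (SE, limma adjusted p = 0.866) and YEATS4 by -0.21 ± 0.25 (adjusted p = 0.875). Of the 46 other genes of 12q13 to 12q15, 2 were called lower in SKNAS/shHIF1a than in SKNAS. IRAK3, an inhibitor of Toll-like receptor signalling, differed by -2.67 (limma adjusted p = 0.00397) and TSPAN8, a tetraspanin, by -2.21 (limma adjusted p = 0.0458). CDKN2A, the locus of p16 and of the MDM2 inhibitor p14ARF, was higher in SKNAS/shHIF1a by 1.75 ± 0.21 (limma adjusted p = 0.02), the 1 regulator of MDM2 and p53 past that test. With 1 array left out, limma adjusted p ran from 0.0175 to 0.0639 for IRAK3 (above 0.05 without SKNAS vehicle), from 0.103 to 0.391 for TSPAN8 and from 0.0763 to 0.18 for CDKN2A, so that the calls of TSPAN8 and CDKN2A were lost without any 1 of the 4 arrays. TSPAN8 also missed the threshold with no level filter, at 0.0615.

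The tested genes whose levels followed MDM2 most closely over the 8 arrays were taken among 9510 genes with a range of at least 1. They were MAL2, LPL, DIRAS2, POU4F2, CNOT2, SYNDIG1, RIMS1, MBD6, SLC35E3 and NLGN4X, with Pearson r from 0.997 down to 0.994. Of these 10, 3 lie on chromosome 12, CNOT2, MBD6 and SLC35E3. MAL2, LPL, DIRAS2, POU4F2 and RIMS1 read at most 3.17 outside NB1691, below the filter level, and passed it only through NB1691. Other members had r with MDM2 of 0.990 for CCT2, 0.982 for YEATS4 and 0.952 for CPM, and -0.774 for NUP107, -0.842 for RAP1B and -0.855 for CPSF6. With 2 of 8 arrays far above the rest, r describes the step between NB1691 and the other lines.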

How the data were processed

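The authors deposited log2 signals per probe set, made with RMA per the submitters' processing notes; its version is not given in the sources used here. Of 54715 probe sets, 40920 carried exactly 1 gene symbol, 864 carried several and 12931 carried none. Array controls, 102 in number, lie within these classes, 6 with 1 symbol and 96 with none. The probe set with the highest mean over 8 arrays stood for a gene, and tests covered genes whose mean reached log2 3.21, the 40th percentile over probe sets. No scaling was added. The members and gene lists were chosen with earlier results of these data known.

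Tests were limma 3.58.1 (R 4.3.3) with Benjamini-Hochberg adjustment over all tested genes, two-sided, threshold 0.05: ciclopirox against vehicle with the line as a block (degrees of freedom 3 residual, 2.98 prior), the NB1691 response against the other lines on 4 differences (2 and 2.79), and SKNAS/shHIF1a against SKNAS with treatment as a term. Arrays were paired because they come from the same cell line. Deviations of the 2 arrays of a line from the treatment means had Pearson r across genes of 0.898 in SKNAS, 0.867 in NB1691, 0.885 in SKNBE2 and 0.817 in SKNAS/shHIF1a. The fits were tested on simulated data.

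Genes named were the members, the 10 most like MDM2, neighbours in gene order, a few amplicon and p53 genes, and per list those past a test or with the largest values. CNOT2 levels, segment ends, MDM2 and CPSF6 probe sets, PPM1H, GRIP1, LGR5 and THAP2 were picked after their values were seen, as were extremes named within lists. Alternatives were no block, leaving out a line or array, averaging SKNAS with its derivative, other filters and the mean of probe sets. Further ones were centring, quantile normalization, an intensity trend, and other gaps and reference lines. Chosen after seeing the data, each probe set with 1 gene at the filter level was also tested alone. Genes with no probe set of 1 gene in the annotation used here were not analysed here. Promoter windows were searched with Python 3.11.15, pandas 2.3.3 and numpy 2.4.6, and figures were drawn with matplotlib 3.10.9.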

Additional observations from a re-analysis of the deposited data

Results flagged for a closer look

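Among the 4 lines of a treatment, NB1691 was the highest line and stood apart for several members. The gap to the next line is given as a share of the whole range. The shares for ciclopirox arrays were 0.877 for MDM2, 0.872 for CCT2, 0.956 for SLC35E3 and 0.881 for LYZ. For vehicle arrays they were 0.87 for MDM2, 0.937 for CPM, 0.963 for CCT2, 0.959 for YEATS4, 0.895 for SLC35E3 and 0.906 for LYZ. These levels were known when the members were proposed, so the shares are a description with no test, and LYZ is near background.

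Changes under ciclopirox on the brightest probe set ran one way in NB1691 and the other way in all 3 other lines for 3 members. For MDM2 this depended on the probe set, as 225160_PM_x_at was also higher under ciclopirox in SKNAS/shHIF1a, by 0.38. MDM2 changed by 0.23 in NB1691 and by a mean of -0.20 in the others, CCT2 by 0.10 against -0.17, and NUP107 by 0.40 against -0.31. The difference in response did not pass the limma test for any of them, with adjusted p of 0.597, 0.706 and 0.403 in that order.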

How the results depend on the processing

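No gene passed for ciclopirox or for the response of NB1691 under any alternative run, and the smallest adjusted p reached with limma was 0.0682 and 0.0784, both with an intensity trend. With no replicate block 0 genes passed for ciclopirox and 451 had an unadjusted p under 0.05, against 2599 with the block; the block changed no call of a member. For SKNAS/shHIF1a against SKNAS, 230 genes passed, 393 with only the 4 arrays of these lines, 181 without the treatment term, and 23 to 162 when 1 array was left out: 23 without SKNAS vehicle, 28 without SKNAS ciclopirox, 149 without SKNAS/shHIF1a vehicle. The cause was not tested beyond there being fewer arrays. No member passed in any of these. Of 344 member values recomputed, 327 kept their direction.

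The 17 that reversed were small and not called. For ciclopirox they were MDM2 at 0.018 without SKNAS and 0.17 with the mean of probe sets, and CPM at -0.028 and RAP1B at -0.012 without SKNAS/shHIF1a. Leaving out 1 line gave -0.20 to 0.018 for MDM2, -0.028 to 0.55 for CPM and -0.012 to 0.24 for RAP1B. For the NB1691 response they were YEATS4 at 0.028 without SKNBE2 (range -0.41 to 0.028 when 1 line was left out) and RAP1B at 0.054 without SKNAS/shHIF1a (-0.32 to 0.054). For SKNAS/shHIF1a against SKNAS, MDM2 was 0.039 without SKNAS vehicle and 0.11 with the mean of probe sets; without SKNAS ciclopirox CPM was 0.20, NUP107 -0.08 and RAP1B 0.06; without SKNAS/shHIF1a vehicle CPM was 0.38, NUP107 -0.21, SLC35E3 0.18 and RAP1B 0.24; without SKNAS/shHIF1a ciclopirox YEATS4 was 0.0086; and with centred arrays RAP1B was 0.0046. Leaving out 1 array gave -0.40 to 0.039 for MDM2, -0.65 to 0.38 for CPM, -0.43 to 0.0086 for YEATS4, -0.21 to 0.23 for NUP107, -0.23 to 0.18 for SLC35E3 and -0.25 to 0.24 for RAP1B.

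The 5 members past the 2-fold gap in NB1691 stayed 5 under every alternative run but the 4-fold gap, which left 4. Over all tested genes 470 passed, and 914 with vehicle arrays only, 836 with ciclopirox arrays only, 968 against SKNBE2 alone, 1070 against SKNAS and its derivative, 357 with the mean of probe sets, 196 at 4-fold and 2258 at any gap. CPSF6 moved from -0.81 to 0.48 with the mean of its probe sets. Leaving out NB1691 from the response comparison could not be run. Levels near background limit the folds of CPM, LYZ and the dim MDM2 probe sets.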

Other observations

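The genes past the 2-fold gap upwards in NB1691 were not spread evenly over the chromosomes. Chromosome 17 held 74 of 856 tested genes (8.64%) and the X chromosome 44 of 497 (8.85%). Beside these were 58 of 771 (7.52%) on chromosome 12 and 38 of 749 (5.07%) on chromosome 6, against 3.24% of all tested genes. These counts include genes that reached the filter level only through NB1691, and they are a description with no test. The 10 genes with the largest difference, NB1691 minus the other lines, were MAGEA6 at 7.74, MAGEA12 at 7.31, DSCR8 at 7.16, TAC3 at 7.05, NLGN4X at 6.88, SYTL4 at 6.79, LRATD1 at 6.78, KRT17P5 at 6.66, HSD17B6 at 6.59 and PLAAT1 at 6.49. Of these, TAC3 and HSD17B6 lie on chromosome 12, in the run of high genes that holds CDK4. MAGEA6 and MAGEA12 are cancer-testis antigen genes of the X chromosome. DSCR8, NLGN4X and KRT17P5 read at most 3.42, 3.32 and 3.03 outside NB1691, near background.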
